A study of Mus musculus with 138 samples.

Results

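Chemokines are small secreted proteins that steer cells through receptors of the G protein-coupled family. The 10 genes described here were taken by name from the 55487 genes of the count files, as the chemokine ligands *Cxcl12*, *Cxcl14*, *Cxcl1*, *Cxcl2*, *Ccl2*, *Ccl7* and *Ccl9* and the receptors *Cxcr4*, *Ackr3* and *Ccr1*. CXCL12 acts through CXCR4 and holds blood-forming and vascular cells in their niches, while ACKR3, an atypical receptor, binds CXCL12 and clears it without G protein signaling. CXCL14 is made by fibroblasts and epithelia, and its receptor is less settled. CCL2 and CCL7 draw monocytes, CCL9 binds CCR1 on macrophages and osteoclasts, the bone-resorbing cells, and CXCL1 and CXCL2 draw neutrophils.

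Promoter sequence is shown for 3 ligands. *Cxcl1* and *Cxcl2* are neighbors on chromosome 5 and were highest in different cell classes of the E18.5 single-cell data. *Cxcl12* was the ligand with the highest mean count level in captured tissue. The sequences are from RefSeq (GRCm38.p6), run 5′ to 3′ on the plus strand over the 250 bases before the gene start, and lie at chr6:117168285-117168534 (*Cxcl12*), chr5:90890995-90891244 (*Cxcl1*) and chr5:90903649-90903898 (*Cxcl2*). Capitals mark GC boxes (GGGCGG or its reverse complement CCGCCC) in *Cxcl12* and the 10-base NF-kappaB-type site, searched on both strands, in *Cxcl1* and *Cxcl2*.
Cxcl12: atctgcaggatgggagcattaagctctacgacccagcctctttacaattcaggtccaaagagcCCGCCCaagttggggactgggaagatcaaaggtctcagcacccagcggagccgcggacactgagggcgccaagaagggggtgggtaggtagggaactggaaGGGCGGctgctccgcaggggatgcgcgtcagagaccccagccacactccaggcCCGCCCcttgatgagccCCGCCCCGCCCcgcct
Cxcl1: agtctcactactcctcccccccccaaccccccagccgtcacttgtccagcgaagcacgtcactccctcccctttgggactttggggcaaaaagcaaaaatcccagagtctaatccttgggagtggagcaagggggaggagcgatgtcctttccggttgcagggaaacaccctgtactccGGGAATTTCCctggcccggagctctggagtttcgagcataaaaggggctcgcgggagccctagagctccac
Cxcl2: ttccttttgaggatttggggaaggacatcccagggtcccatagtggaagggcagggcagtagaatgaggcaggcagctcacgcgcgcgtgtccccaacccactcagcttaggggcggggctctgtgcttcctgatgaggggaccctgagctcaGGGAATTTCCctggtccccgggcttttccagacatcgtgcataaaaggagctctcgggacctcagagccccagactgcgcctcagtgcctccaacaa
Of 32851 RefSeq mouse promoters of 300 bases, which also take in 50 bases after the start, 0.0883% hold these 10 letters, 35.7% hold a GC box and 13.6% hold TATAAA. *Cxcl12* has 5 GC boxes before its start, of which the last pair overlaps, and the *Cxcl1* and *Cxcl2* promoters hold 1 NF-kappaB-type match each, starting 71 and 97 bases before the gene start. The *Cxcl2* promoter also holds a GC box, left in lower case here. Among the other matched members, *Cxcl14*, *Cxcr4* and *Ackr3* have a GC box, *Ccl9*, *Cxcr4* and *Ackr3* have TATAAA, and *Ccr1* has none of the 3 motifs. RefSeq entries matched 8 of the 10 genes, the others being *Ccl2* and *Ccl7*. A match describes letters in this window and is not a measured binding site.

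The levels come from laser-captured regions of 4 calvarial sutures and from dissociated cells of the coronal suture, all from wild-type C57BL/6J mouse embryos at E16.5 or E18.5. Captured regions were the suture mesenchyme (SM) and an osteogenic front (OF) of each adjoining bone, which were the frontal (FR) and parietal (PA) fronts of the coronal suture, the FR of the frontal suture, the interparietal (IP) and PA fronts of the lambdoid suture and the PA of the sagittal suture. This gave 20 groups of 5 embryos each, with 100 libraries from 40 embryos. The SM and OF of 1 suture came from the same embryos. In every group some embryos share the first part of the embryo label, and the ages of a suture share none of these parts. No term for it entered the comparisons of age, so age and this part of the label cannot be told apart. In mm10 coordinates with the GENCODE vM22 annotation, *Cxcl12* lies at chr6:117168535-117181367 (plus strand), *Ackr3* at chr1:90203980-90216751 (plus), *Cxcr4* at chr1:128588199-128592293 (minus) and *Cxcl14* at chr13:56288643-56296551 (minus), and exon counts per gene were used. The single-cell data hold 2 libraries per age, each a pool of sutures from several embryos of both sexes whose outer and inner membranes had been pulled off as far as possible.

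Captured libraries held 20133332 to 34518477 counts in the coronal suture and 7305627 to 18450955 in the other sutures. The sutures were prepared as separate library sets, so a difference in level between sutures cannot be told apart from a difference between sets. Levels were therefore compared within a suture. Where SM over OF of the coronal suture is set against the other sutures, suture and library set cannot be told apart either. The dissection matched its labels, as all 10 osteoblast markers were lower in SM, with a summed level of 68.5 to 1050 CPM in SM and 2220 to 24300 in OF. CPM is the usual unit of counts scaled to the total of the library, fold changes are log2 values from the model fitted to all 100 libraries, and n is 5 embryos wherever a mean and SD of a captured group are given.

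*Ackr3* and *Cxcl12* gave the most counts of the 10 genes in captured tissue, with means over the 100 libraries of 33.3 and 31.7 CPM. Per length, in FPKM (CPM divided by the exon length in kilobases), *Ackr3* led with 9.94, before *Cxcl14* with 6.88, *Cxcl12* with 3.87 and *Cxcr4* with 1.72. The remaining tested genes were low, with means of 2.07 CPM (*Ccl9*), 0.834 CPM (*Ccl7*), 0.703 CPM (*Ccr1*) and 0.613 CPM (*Ccl2*). *Cxcl1* had a count in 37 of the 100 libraries and *Cxcl2* in 8, with 149 and 12 counts in all, so both failed the filter of 1 CPM in more than 10% of libraries, and 8 of the 10 genes were tested.

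Averaged over sutures and ages, 3 ligands were higher and 1 receptor lower in SM. *Cxcl12* (log2 fold change 0.33, SE 0.12, adjusted p = 0.0158), *Cxcl14* (0.48, SE 0.13, adjusted p = 0.00158) and *Ccl7* (0.97, SE 0.34, adjusted p = 0.0109) were higher in SM. *Ackr3* was lower in SM (−0.73, SE 0.10, adjusted p = 2.77e-09, edgeR quasi-likelihood test). Among all 19768 genes tested 55.4% passed in this comparison, 27.6% higher and 27.8% lower, so 4 of 8 is no more than the background share. In captured tissue fewer cells of a type and less RNA per cell cannot be told apart. *Cxcr4* (0.49, adjusted p = 0.0648), *Ccl9* (0.57, adjusted p = 0.0612), *Ccr1* (0.63, adjusted p = 0.0855) and *Ccl2* (0.51, adjusted p = 0.224) did not pass. With the embryo as a block, *Cxcr4* passed (0.75, adjusted p = 0.00774), with the second coronal libraries *Cxcl14* did not (0.24, adjusted p = 0.177), and without replicate 2, *Cxcl12* (0.29, adjusted p = 0.0734) and *Ccl7* (0.61, adjusted p = 0.121) did not. Total counts and DESeq2 called more of the 8 genes than the main fit, as counted in the last section.

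**Figure D1:**
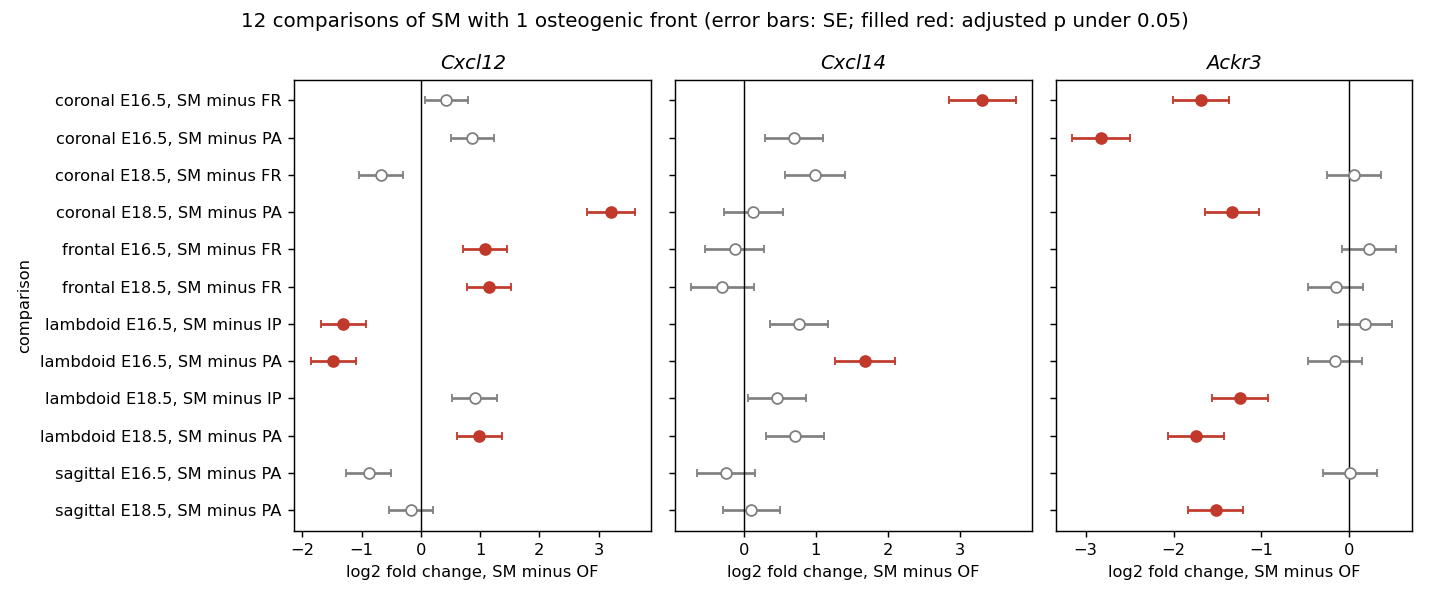
Log2 fold change of SM over OF (x axis) for *Cxcl12*, *Cxcl14* and *Ackr3* in the 12 comparisons of an SM with 1 OF (y axis), with SE bars and filled red points where the adjusted p is under 0.05. *Ackr3* is either lower in SM or near 0, while *Cxcl12* has called differences on both sides of 0, down to −1.48 in the lambdoid suture and up to 3.20 in the coronal suture.

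*Cxcl12* had its highest levels in the frontal suture and a single front in which it nearly disappeared. The frontal SM held 83.3, 188.6, 112.1, 92.7 and 137.2 CPM at E16.5, against 48.4, 84.4, 65.1, 47.5 and 44.4 CPM in the FR. All but 1 SM value exceeded all FR values, and the groups overlapped narrowly (1.08, SE 0.36, adjusted p = 0.0479, 7.91% of all genes called). At E18.5 the frontal SM held 68.9 to 101.4 CPM and the FR 26.9 to 55.5 CPM, with no overlap (1.15, SE 0.37, adjusted p = 0.026, 11.1% called). *Cxcl12* was the only one of the 8 genes called in either frontal comparison. The E16.5 call is lost with the embryo block (1.06, adjusted p = 0.0704) and without replicate 1, 2, 4 or 5 (adjusted p from 0.0609 to 0.217), and the E18.5 call without replicate 1, 4 or 5 (0.0633 to 0.204). The summed level of the dura mater marker list was also higher in frontal SM, at 744 to 986 CPM against 251 to 352 at E16.5 and 656 to 833 against 110 to 291 at E18.5, and its part in the result was not tested. Sums of the endothelial list overlapped between frontal SM and FR at both ages.

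In the coronal suture at E18.5 the parietal front was set apart. It held 2.93, 2.56, 3.55, 4.27 and 1.34 CPM of *Cxcl12*, against 28.4, 23.1, 24.3, 32.0 and 26.8 CPM in the SM and 19.4 to 75.4 CPM in the frontal front. Every PA library was thus below every library of the other regions, and the SM exceeded the PA by 3.20 (SE 0.41, adjusted p = 8.61e-10, 18% called). SM and FR did not differ by the test, and none of the 8 genes was called between them (3.46% called). The second libraries made for 3 of these PA samples held 8.13, 3.72 and 5.82 CPM, and those for 3 SM samples 38.3, 29.4 and 32.3 CPM. Dura mater markers summed to 46.7 to 84.3 CPM in the PA, 136 to 181 in the SM and 120 to 257 in the FR, so that this list also was lowest in the parietal front. The endothelial list likewise was lowest there, with 59.3 to 103 CPM in the PA, 252 to 319 in the SM and 176 to 407 in the FR. Pericyte markers did not follow, with 396 to 646 CPM in the PA, 359 to 669 in the SM and 557 to 1030 in the FR. The part of these lists was not tested.

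The low parietal level of *Cxcl12* was reached between the ages. At E16.5 the coronal PA held 57.0, 15.7, 1.11, 13.2 and 17.4 CPM, with 1 library below every E18.5 value and the other 4 above them all. The change from E16.5 to E18.5 was −2.84 (SE 0.40, adjusted p = 1.14e-07, 20.6% called). Second libraries of E16.5 PA samples held 40.9, 7.59 and 10.9 CPM, the last from the sample at 1.11 CPM. They overlapped with the E18.5 second libraries, at 3.72 to 8.13 CPM. Endothelial markers in the PA were also lower at the later age without overlap, at 116 to 425 CPM at E16.5 and 59.3 to 103 at E18.5. Pericyte markers in the PA were higher at the later age without overlap, at 186 to 348 CPM at E16.5 and 396 to 646 at E18.5. Dura mater markers were 22.5 to 73.7 CPM at E16.5 and overlapped with the later age, and the part of these cells was not tested. At E16.5 neither coronal comparison called *Cxcl12*, with means of 38.1 ± 16.7 CPM in SM, 28.3 ± 15.4 in FR and 20.9 ± 21.2 in PA (SD). With the embryo block the SM was higher than the PA at that age (1.24, adjusted p = 0.0149).

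In the lambdoid suture *Cxcl12* changed sides between the ages. At E16.5 the SM held 10.8, 7.83, 7.89, 10.4 and 10.4 CPM, the IP 19.5 to 29.2 CPM and the PA 23.8 to 29.9 CPM, with no overlap. The SM was lower than the IP by 1.31 on the log2 scale (−1.31, SE 0.38, adjusted p = 0.0122, 11.2% called) and than the PA by 1.48 (−1.48, SE 0.38, adjusted p = 0.00189, 23.1% called). At E18.5 the SM held 23.7, 29.5, 29.4, 12.2 and 22.9 CPM, and the PA 8.91 to 14.8 CPM (0.99, SE 0.38, adjusted p = 0.0453, 24.6% called). The IP, at 10.0 to 14.7 CPM, was not called against the SM. The SM itself rose with age (1.31, SE 0.38, adjusted p = 0.0353, 2.96% called) without overlap of the 2 ages.

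Most of these lambdoid calls sit near the threshold. Each of 5 omissions of a replicate number took the adjusted p of the rise in SM to between 0.0589 and 0.184, and voom gave 0.441. The E18.5 call against PA was lost with the embryo block (0.96, adjusted p = 0.0679) and without replicate 1, 2, 4 or 5 (0.0639 to 0.122), and the E16.5 call against IP without replicate 2, 4 or 5 (0.0561 to 0.108). The call against the PA at E16.5 was kept in each of these settings. Dura mater markers were higher in the lambdoid SM at both ages, with 363 to 515 CPM against 100 to 161 in the IP and 44.6 to 124 in the PA at E16.5, and 428 to 748 against 116 to 174 and 92.3 to 119 at E18.5. They thus ran opposite to *Cxcl12* at the earlier age and alongside it at the later. Endothelial markers ran alongside *Cxcl12* at E16.5, with 48.2 to 131 CPM in the SM, 170 to 351 in the IP and 149 to 232 in the PA, and in the SM they were 130 to 230 CPM at E18.5, against 126 to 210 in the IP and 185 to 236 in the PA. The part of these cells in the result was not tested.

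Sagittal *Cxcl12* was 5.06 to 14.02 CPM in SM and 15.8 to 18.7 CPM in PA at E16.5, and 4.32 to 27.5 and 8.09 to 22.3 CPM at E18.5. The test called neither. Dura mater markers were nonetheless higher in sagittal SM, with 688 to 869 CPM against 112 to 149 at E16.5 and 770 to 947 against 71.6 to 130 at E18.5. Averaged over the OFs of the 4 sutures *Cxcl12* fell with age (−0.71, SE 0.16, adjusted p = 0.000729, 12.2% called, 6.05% higher and 6.14% lower), the only one of the 8 genes to be called there. By single fronts only the coronal PA was called, and the coronal FR had the higher mean at E18.5. Over the OFs, 3 of 10 endothelial markers were higher with age and 0 lower, and 6 of 8 pericyte markers were higher and 1 lower. Of 10 dura mater markers tested, 1 was higher and 2 lower, and the part of these cells was not tested. The change of *Cxcl12* with age differed between SM and OF (0.93, SE 0.24, adjusted p = 0.0394, 0.703% called), and SM over OF was greater in the coronal suture than in the others (0.83, SE 0.26, adjusted p = 0.0148, 21.3% called). The former was not called with the embryo block (0.87, adjusted p = 0.0996) or without any 1 replicate number (0.0705 to 0.233), and the latter without replicate 2 (0.58, adjusted p = 0.178), 4 or 5.

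**Figure D2:**
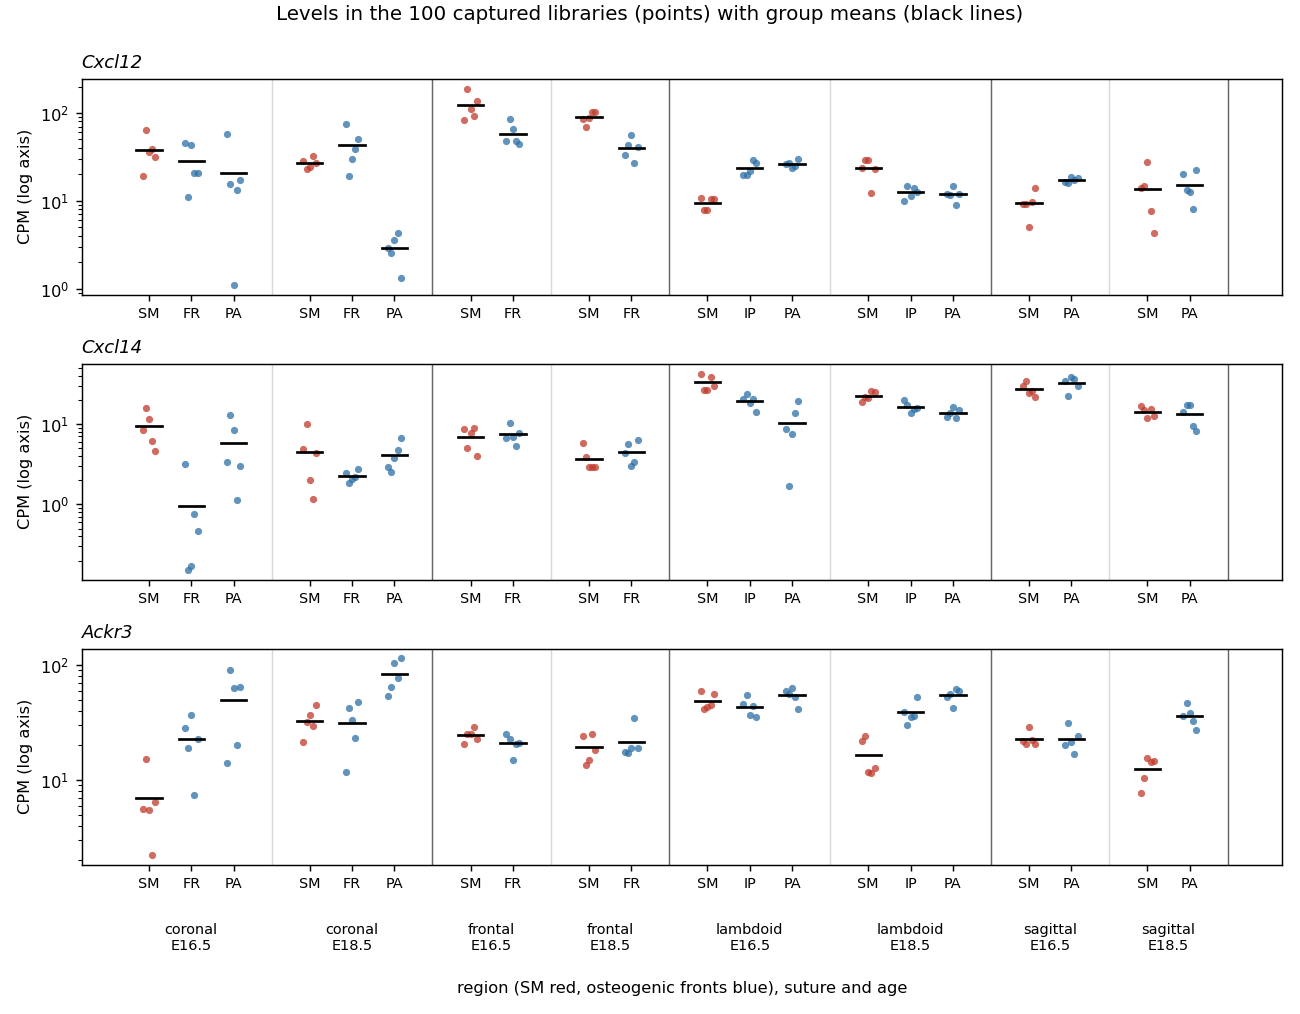
CPM (log axis) of *Cxcl12*, *Cxcl14* and *Ackr3* in each of the 100 captured libraries (points, SM red and OF blue) with the mean of each group of 5 (black line), by suture, age and region on the x axis. The 5 coronal PA libraries at E18.5 hold 1.34 to 4.27 CPM of *Cxcl12*, and the coronal SM at E16.5 holds 2.24 to 15.4 CPM of *Ackr3*, the group with the lowest mean of that gene.

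*Ackr3*, the atypical receptor that takes up CXCL12, was lower in SM than in a front in 6 of 12 comparisons and called higher in none. The coronal SM at E16.5 held 5.55, 15.4, 5.48, 2.24 and 6.47 CPM, the FR 28.2, 19.1, 36.6, 7.43 and 22.9 CPM, and the PA 14.02, 90.1, 62.8, 20.04 and 64.0 CPM. A single SM library overlapped both fronts. The SM was lower than the FR by 1.69 (−1.69, SE 0.32, adjusted p = 2.03e-05, 30.3% called) and than the PA by 2.83 (−2.83, SE 0.33, adjusted p = 2.74e-11, 35.6% called). By E18.5 the coronal SM had risen to 21.6, 31.9, 37.1, 29.4 and 44.7 CPM, without overlap with E16.5 (2.22, SE 0.32, adjusted p = 1.33e-07, 27.1% called). In that SM the sums of the periosteal (4910 to 6270 against 9840 to 12500 CPM), *Mmp13* osteogenic (229 to 386 against 519 to 572), macrophage (88.5 to 143 against 241 to 340) and chondrocyte (93.2 to 131 against 250 to 335) lists were also higher at E18.5 without overlap, while the osteoblast list was 293 to 1050 CPM at E16.5 and 193 to 685 at E18.5, and their part was not tested. *Ackr3* in the SM then lay within the FR range of 11.7 to 48.2 CPM and below every PA library, which held 54.5 to 114.4 CPM (−1.34, SE 0.31, adjusted p = 0.000709). That last call is lost when the coronal suture is fitted by itself (−1.31, adjusted p = 0.1).

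The lambdoid SM moved the opposite way with age. It held 59.9, 42.0, 43.1, 44.7 and 56.2 CPM of *Ackr3* at E16.5 and 21.9, 23.99, 11.8, 11.5 and 12.7 CPM at E18.5, with no overlap (−1.59, SE 0.32, adjusted p = 0.000602). In that SM the suture mesenchyme (809 to 1090 against 1260 to 1530 CPM), pericyte (200 to 223 against 246 to 466) and *Mmp13* osteogenic (216 to 283 against 303 to 417) sums were higher at E18.5 without overlap. The osteoblast sum was 133 to 643 CPM at E16.5 and 192 to 477 at E18.5, and the part of these lists was not tested. In neither front was a change of *Ackr3* called, at 35.4 to 63.3 CPM at E16.5 and 30.1 to 61.9 CPM at E18.5 over IP and PA. The E18.5 lambdoid SM was accordingly lower than the IP (−1.24, SE 0.32, adjusted p = 0.00194, 19.6% called) and the PA (−1.74, SE 0.32, adjusted p = 9.04e-06), again with no overlap, and the IP call was lost without replicate 5 (−0.98, adjusted p = 0.0621). In the sagittal suture at E18.5 the SM held 7.79 to 15.7 CPM and the PA 27.5 to 46.7 CPM (−1.52, SE 0.32, adjusted p = 7.42e-05, 25.3% called), whereas at E16.5 they held 20.4 to 29.1 and 16.8 to 31.3 CPM and no gene of the 8 was called (17.7% called). Frontal SM and FR had similar levels at both ages, with 13.5 to 28.8 CPM in SM and 14.9 to 34.8 CPM in FR. Averaged over both ages, SM over OF of *Ackr3* was lower in the coronal suture than in the mean of the others (−0.96, SE 0.23, adjusted p = 0.00101). This call was kept in every setting tried, but it does not describe each age. At E18.5 the coronal SM was not called against the FR, while lambdoid and sagittal SM were called lower than their fronts.

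*Cxcr4*, the signaling receptor for CXCL12, was a low-level gene at 1.17 to 6.57 CPM over the 20 group means. The coronal SM at E18.5 held 4.31, 9.06, 7.30, 5.06 and 4.76 CPM, against 1.89 to 4.95 CPM in the FR and 1.58 to 4.42 CPM in the PA, so that the highest library of each front overlapped with the lowest SM libraries. None of the 12 comparisons of SM with a front called it. In the coronal FR at E16.5, 3 libraries had no count and 1 held 5.71 CPM, and with the embryo block *Cxcr4* was higher in the SM than in that front (3.77, adjusted p = 0.00258). Leaving out replicate 3, which holds that library, turned SM over OF in the coronal suture against the others from 0.84 (adjusted p = 0.242) to 2.35 (adjusted p = 4e-04), and the second libraries gave 1.43 (adjusted p = 0.0143).

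*Cxcl14*, a ligand of fibroblasts, was the other gene with a wide range. The coronal SM at E16.5 held 8.53, 15.8, 11.6, 6.13 and 4.66 CPM and the FR 3.17, 0.154, 0.173, 0.753 and 0.468 CPM, with no overlap (3.31, SE 0.46, adjusted p = 1.37e-08). The PA spread from 1.15 to 12.8 CPM across the SM range and was not called. Second libraries of 3 of these FR samples held 11.4, 1.78 and 2.09 CPM, each more than the first library of the same sample, and those of the SM held 16.7, 8.15 and 11.0 CPM. The PA second libraries held 17.2, 38.0 and 20.7 CPM, each above the SM of the same embryo, and at E18.5 those of 3 PA samples held 17.45, 16.6 and 16.96 CPM against 6.14, 11.5 and 7.21 CPM in SM. With the second libraries in place of the first, SM over FR at E16.5 was 1.49 (adjusted p = 0.023), and SM over PA was −0.79 (adjusted p = 0.214) and −0.61 (adjusted p = 0.392) at the 2 ages.

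The lambdoid SM at E16.5 held the highest mean of *Cxcl14*, at 42.4, 26.7, 26.7, 38.7 and 29.9 CPM. The IP held 14.1 to 23.4 CPM and the PA 8.79, 1.67, 7.59, 13.6 and 19.2 CPM, both without overlap with SM. Only the PA was called against SM (1.69, SE 0.41, adjusted p = 0.000981), although the IP also lay below every SM library. At E18.5 the SM held 18.54 to 25.9 CPM, the IP 13.9 to 20.1 CPM and the PA 11.7 to 16.1 CPM, with no call. In the frontal and sagittal sutures SM and front overlapped at both ages, with frontal values from 2.88 to 10.4 CPM and sagittal values from 8.25 to 38.0 CPM. All 10 ectocranial mesenchyme markers were higher in SM over all sutures, with summed levels of 516 to 7230 CPM in SM and 194 to 4230 in OF. In the lambdoid suture they moved with *Cxcl14* at E16.5, with 3770 to 4370 CPM in SM, 1410 to 2070 in the IP and 505 to 1480 in the PA. At E18.5 they were 3780 to 5500, 1220 to 2160 and 1280 to 1600 CPM in these regions. Elsewhere they did not always move with *Cxcl14*. They were higher in SM without overlap in the frontal and sagittal sutures, where *Cxcl14* overlapped (in the sagittal suture at E18.5, 6390 to 7230 CPM against 1090 to 1590), and at E16.5 the coronal sums were 516 to 1090 CPM in SM, 194 to 457 in FR and 305 to 1320 in PA. Their part in the *Cxcl14* differences was not tested.

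*Cxcl14* fell with age over the 4 SM (−0.85, SE 0.20, adjusted p = 0.00185), the only call among the 8 genes where 11.1% of all genes passed, 5.14% higher and 5.92% lower. Over the same SM all 11 proliferating markers were lower at E18.5. Of the ectocranial mesenchyme markers 4 were higher and 1 lower, and 8 of 14 macrophage and 5 of 6 periosteal markers were higher with 0 lower. The part of these lists was not tested. *Cxcl14* in coronal SM fell from a mean of 9.36 ± 4.48 to 4.53 ± 3.50 CPM (−1.05, SE 0.41, adjusted p = 0.0456) and in coronal FR it rose from 0.943 ± 1.27 to 2.27 ± 0.349 CPM (1.27, SE 0.45, adjusted p = 0.0282, 24.4% called). SM over OF was greater in the coronal suture than in the others (1.07, SE 0.29, adjusted p = 0.00458). These coronal results rest on the first libraries, since with the second libraries in their place the 3 values were −0.26 (adjusted p = 0.789), 0.04 (adjusted p = 0.974) and 0.10 (adjusted p = 0.899), and the fall over the 4 SM was −0.66 (adjusted p = 0.0614). Without replicate 2 the coronal difference was 0.63 (adjusted p = 0.117), the fall in coronal SM was lost without replicate 1, 3 or 4 (0.0704 to 0.215) and the rise in FR without replicate 2, 3, 4 or 5 (0.0655 to 0.155).

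The CC ligands were sparse, and their calls rested on few libraries. *Ccl7* in the coronal suture at E16.5 was 0.202, 5.86, 0.332, 0.16 and 0 CPM in SM, at most 0.201 CPM in the FR and at most 0.58 CPM in the PA. It was called against both (4.71, SE 1.24, adjusted p = 0.00215, and 3.15, SE 1.11, adjusted p = 0.0193). Without replicate 2, which holds the library at 5.86 CPM, the values were 1.57 (adjusted p = 0.323) and 0.01 (adjusted p = 1), with the embryo block 3.57 (adjusted p = 0.0949) and 2.16 (adjusted p = 0.297), and with the second libraries 0.45 (adjusted p = 0.814) and 0.16 (adjusted p = 0.927). In the coronal FR *Ccl7* had a count in 1 of 5 libraries at E16.5 and in 4 of 5 at E18.5, where it reached 3.13 CPM (4.46, SE 1.23, adjusted p = 0.00471). The second libraries turned that difference to −0.69 (adjusted p = 0.711), and without replicate 3 it was 3.36 (adjusted p = 0.0784). Macrophage markers summed to 88.5 to 143 CPM in that coronal SM, 112 to 141 in the FR and 149 to 181 in the PA. In the frontal SM at E16.5 *Ccl7* was even, at 1.35 to 1.85 CPM, and the FR held 0.337 to 1.90 CPM.

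*Ccl2*, whose locus lies next to that of *Ccl7* on chromosome 11, was 0.125 to 2.78 CPM in coronal SM at E16.5. Coronal PA held 0, 0.409, 0, 0 and 0.0542 CPM at that age, and the difference was called (3.67, SE 1.16, adjusted p = 0.00924). At E18.5 the PA held 0 to 1.93 CPM, a rise of 3.07 (SE 1.14, adjusted p = 0.0436). The second libraries gave 0.80 (adjusted p = 0.595) and −0.62 (adjusted p = 0.775), so neither call was kept with them. Without replicate 5 the SM difference had an adjusted p of 0.059, and without replicate 1, 3, 4 or 5 the rise had 0.0733 to 0.232. *Ccl2* overlaps the antisense gene *Gm17268*, and the counting ignored strand, so their reads cannot be told apart.

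*Ccl9*, an osteoclast and macrophage ligand, and its receptor *Ccr1* were called in none of the comparisons of the main fit. Total counts and DESeq2 called more genes in the mean of SM over OF, and not both of these stayed uncalled there. *Ccl9* in coronal E16.5 tissue ran from 0 to 23.9 CPM, with the top library in the FR next to values of 0, 3.43, 0.201 and 0.878 CPM. The frontal SM at E18.5 was even, at 2.40 to 3.40 CPM, and above 4 of its 5 FR libraries, which held 0.679 to 3.17 CPM. *Ccr1* had its highest mean in the lambdoid SM at E18.5, with 1.29, 3.43, 1.82, 2.32 and 0.688 CPM, whereas the lambdoid IP held 0 to 0.445 CPM, without overlap with SM and without a call. Macrophage markers summed to 280 to 497 CPM in that SM and 190 to 274 in that IP, and 9 of the 14 markers were higher in SM over all sutures, with a median of 0.32 against 0.036 for all genes tested. Their part in the result was not tested.

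**Figure D3:**
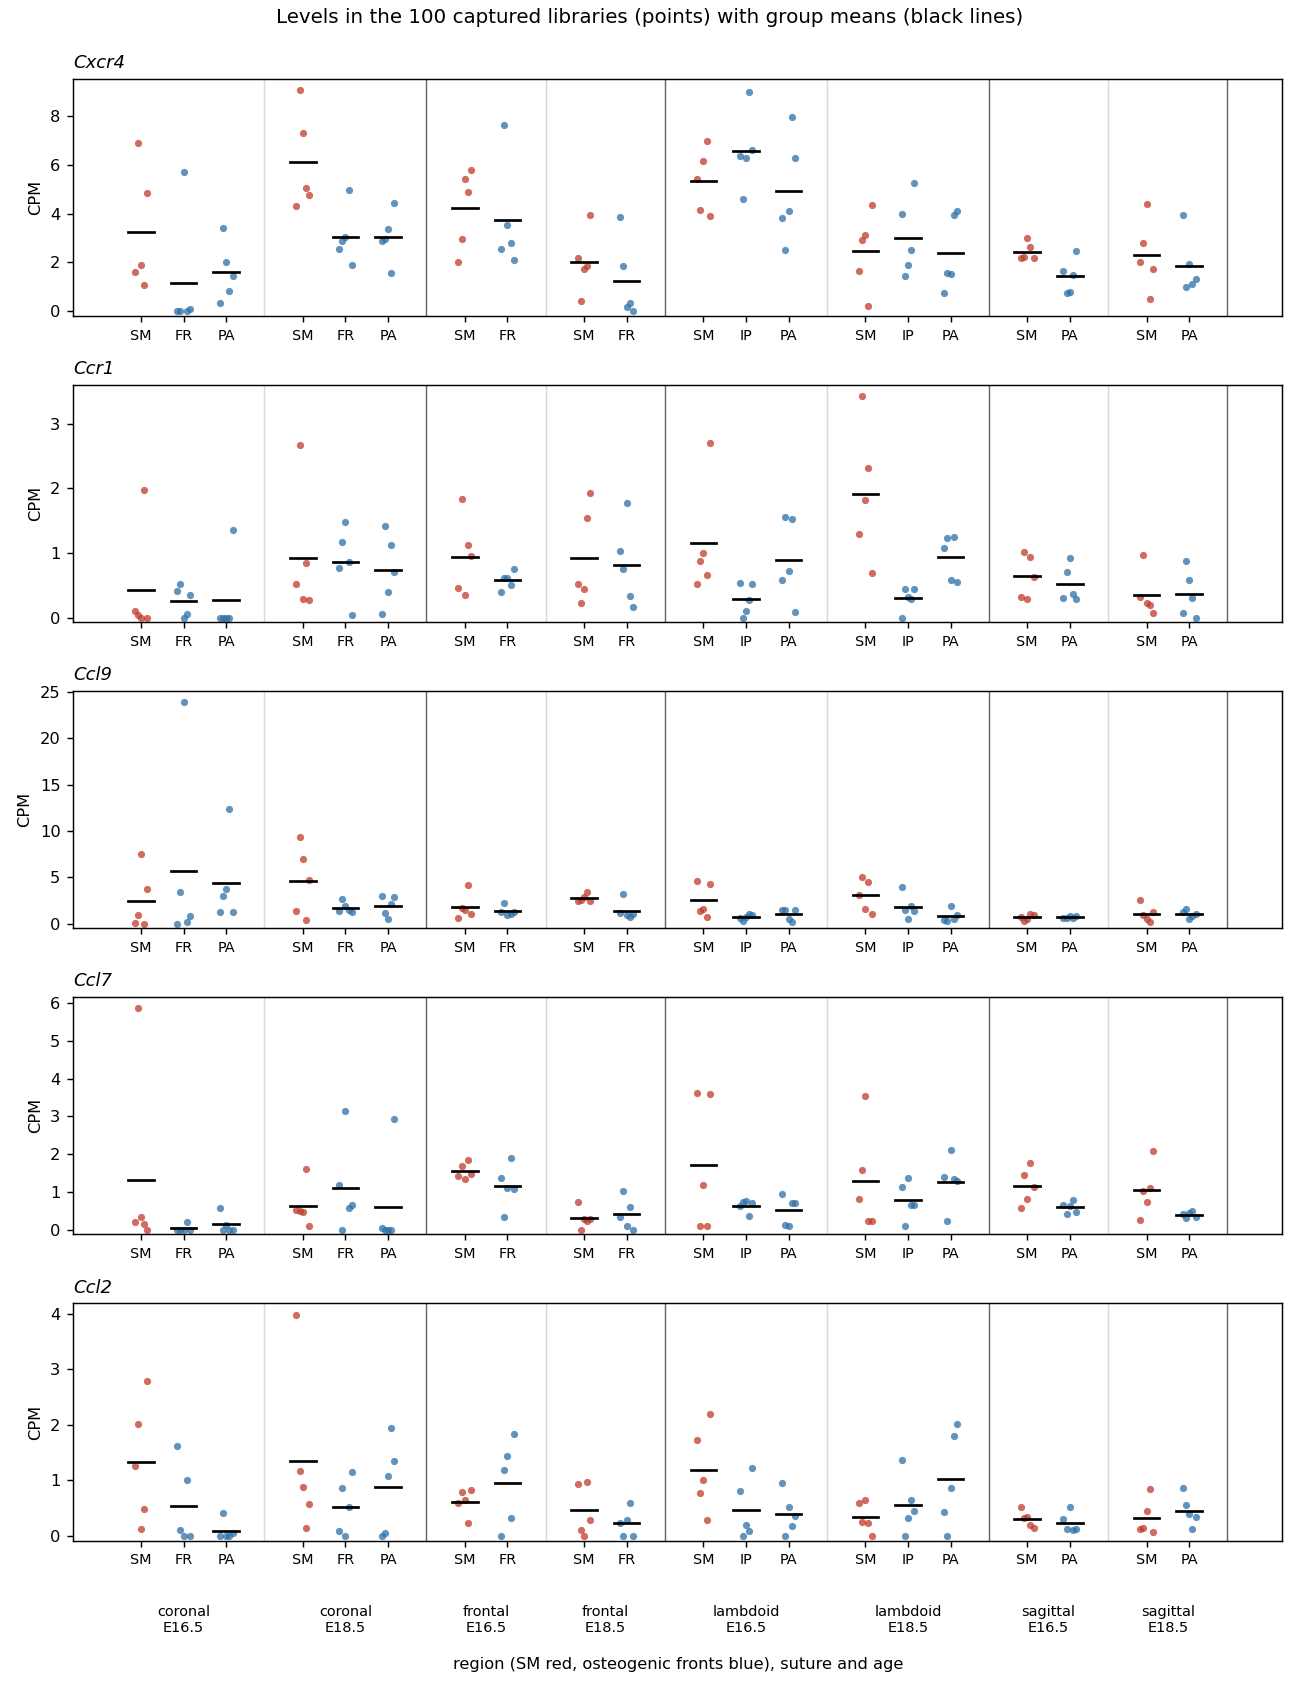
CPM (linear axis) of *Cxcr4*, *Ccr1*, *Ccl9*, *Ccl7* and *Ccl2* in each captured library (points, SM red and OF blue) with group means (black lines), by suture, age and region on the x axis. Single libraries stand above the other 4 of their group, such as 5.71 CPM of *Cxcr4* and 23.9 CPM of *Ccl9* in the coronal FR at E16.5 and 5.86 CPM of *Ccl7* in the coronal SM at E16.5.

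*Cxcl1* reached 1.84 CPM in 1 library of coronal SM at E18.5 and *Cxcl2* at most 0.172 CPM in any captured library. *Cxcl1* had a count in 27 of 40 SM libraries and in 10 of 60 OF libraries, with 122 and 27 counts in all. In a fit without the filter on low counts *Cxcl1* was higher in SM over all sutures and ages (adjusted p = 1.19e-06), where 26.6% of 42509 genes were called, and it was higher without replicate 4, which holds the library at 1.84 CPM, as well (adjusted p = 8.72e-05). Its call in that fit in the coronal SM against the PA at E18.5 (adjusted p = 0.00782, 8.58% called) was lost without replicate 4 (adjusted p = 0.252). No fold is given, since several OF groups had no count. *Cxcl2*, with 4 counts in SM and 8 in OF, was not called in either comparison of that fit. At E18.5 both genes were plentiful in dissociated cells of the coronal suture, with 119 and 87.2 CPM of *Cxcl1* and 361 and 117 CPM of *Cxcl2* over all kept cells of libraries 1 and 2, and at E16.5 *Cxcl1* had 5 and 7 UMIs in all and *Cxcl2* 69 and 65.

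Changes with age were otherwise few among the 8 genes, and so they were among all genes. No member was called in the frontal SM (2.33% of all genes called) or FR (4.34%), the lambdoid IP (0.288%) or PA (0.986%), or the sagittal SM (1.12%) or PA (1.6%). Ordered by group mean, most neighbors among the 20 groups overlapped, which such an ordering itself favors. Of the 19 pairs of neighbors in that order, 1 did not overlap for *Cxcl12* and 1 for *Cxcl14*, and every pair overlapped for the other members. This order takes in differences between library sets as well as between sutures.

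Complete E18.5 sutures were sequenced once in each of the 4 library sets as normalization controls, which lets sutures be set side by side within a set. *Cxcl12* was 212.6 to 233.8 CPM in the frontal suture, 119.7 to 142.2 in the sagittal, 114.9 to 123.5 in the lambdoid and 66.5 to 70.3 in the coronal suture, in the same order of highest and lowest suture in every set. *Ackr3* was 53.7 to 61.0 CPM in the coronal suture and 26.01 to 39.5 in the others. *Ccl9* was 21.7 to 29.1 CPM and *Ccr1* 5.60 to 8.63 CPM in the coronal suture, above 1.02 to 12.4 CPM and 0.359 to 2.96 CPM in the others. *Cxcr4* was 4.43 to 7.61 CPM in the coronal and 1.73 to 4.78 CPM in the other sutures. In the coronal suture *Cxcl1* was at most 0.653 CPM, *Cxcl2* 0.316, *Ccl2* 0.669 and *Ccl7* 1.09. *Cxcl14* was 11.55 to 27.4 CPM in the sagittal, 6.28 to 20.7 in the lambdoid, 5.74 to 14.8 in the coronal and 3.40 to 8.56 in the frontal suture, and fell in this order within every set although the sets differed. With 1 replicate per suture these are values without a test, and since the labels give the same replicate in each set, the 4 sets may hold the same RNA and are not independent samples.

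Beyond the 10 genes, 19 other genes of the list of 62 chemokine ligands and receptors were tested, and 8 were higher and 2 lower in SM over all sutures and ages, where 55.4% of all genes were called, 27.6% higher and 27.8% lower. Their median difference was 0.55, against 0.50 for the 8 members and 0.036 for all genes. *Ccl11* (1.43, SE 0.41, adjusted p = 0.00192), an eosinophil chemoattractant, *Ccr10* (1.03, SE 0.35, adjusted p = 0.00941) and *Ackr4* (−1.25, SE 0.21, adjusted p = 1.66e-07), a scavenger of other chemokines, changed by more than 1. *Ccl12* rose with age in SM (1.501, SE 0.48, adjusted p = 0.0294). *Ccr10* and *Ackr4* overlap other genes, so part of their reads may come from these. The list was chosen with results of these data known.

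By group means over the 20 groups, the genes most alike in pattern were *Procr* (Pearson r = 0.912), *Bin2* (0.889) and *Vwf* (0.867) for *Cxcl12*, and *Lhpp* (0.891), *Arhgap39* (0.883) and *Cbx8* (0.881) for *Cxcl14*. They were *Ogdh* (0.878), *Tmem184b* (0.861) and *Zdhhc5* (0.859) for *Ackr3*, *Ank1* (0.805), *Rhog* (0.798) and *Mob3a* (0.797) for *Cxcr4*, and *Pcdhb18* (0.867), *Ncoa2* (0.862) and *Arid1b* (0.845) for *Ccl9*. These are descriptions over 20 points that share library sets and depth by suture.

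Dissociated coronal cells show which cells hold these transcripts after dissociation. Over all kept E18.5 cells of libraries 1 and 2, *Ccl2* was 229 and 67.9 CPM and *Ccl7* 215 and 54.9. The levels of *Cxcl1* and *Cxcl2* there are given above. Complete coronal sutures of that age held at most 1.09 CPM of any of these genes, in counts of another kind. The part of dissociation in this was not tested. At E16.5, 497 of 1530 and 359 of 1482 barcodes had more than 800 detected genes, and 466 and 337 cells were kept. At E18.5, 2625 of 2628 and 1624 of 1999 did, and 2412 and 1577 cells were kept. The E16.5 numbers after that filter are below the final cell numbers of the study's methods, and the E18.5 numbers are the same. The E16.5 cells had a median of 2501 (library 1) and 2121 (library 2) unique molecular identifiers (UMIs), and the E18.5 cells 18476 and 7131. The capture chemistry differed between the ages, so ages were not compared. Cells were clustered without the chemokine family, and each class below is named for the markers that lead its cluster, and tests between classes use the same cells that formed them. The 2 E18.5 libraries share 4 cell barcodes. Library 1 alone held hypodermis-like cells at E16.5 and glia-like cells at E18.5, and library 2 held nearly all cells of an unnamed E18.5 cluster (451 of 456). An unnamed E16.5 cluster held 57 and 72 cells. Unnamed clusters entered neither the tests between classes nor the figures by class. The E16.5 one held 117 and 86.6 CPM of *Cxcl14*. In library 2 the E18.5 one held 72.0 CPM of *Ccl2*, 80.9 of *Ccl7* and 47.7 of *Ackr3*. The E18.5 class called macrophage-like for its leading genes is mixed. At a resolution of 1.2 its 277 and 73 cells split into 186 and 21 macrophage-like cells, 73 and 41 osteoclast-like cells led by *Acp5*, and 18 and 11 cells led by *Cd74* and *H2-Aa* that also had high *S100a8*, so most of its cells were macrophage-like in library 1 and osteoclast-like in library 2.

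Transcripts of other cells were found in nearly every E18.5 cell. *Col1a1*, a bone matrix gene, was seen in 100% of macrophage-like cells there and in 19.4% and 21.2% of them at E16.5, and the hemoglobin gene *Hbb-bs* in 100% of the cells of every E18.5 class. Levels are given as CPM of the UMIs summed over a class, for libraries 1 and 2 in turn. Shares of cells with a UMI are therefore given after thinning each cell to 1000 (E16.5) or 3000 UMIs (E18.5), with an exact 95% interval, beside a class that should lack the gene. Intervals cover counting error only.

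Among the suture classes, *Cxcl12* was highest in dura mater-like cells. At E18.5 these held 271 and 253 CPM (libraries 1 and 2), against 35.3 and 32.0 in ectocranial mesenchyme-like, 15.3 and 16.2 in suture mesenchyme-like, 15.2 and 10.8 in osteoblast-like and 9.46 and 8.82 in macrophage-like cells. Of thinned dura mater-like cells, 40.4% (36.3 to 44.6) and 39.3% (31.3 to 47.8) had a UMI, against 2.17% and 1.37% of macrophage-like cells at unthinned shares of 15.2% and 12.3%. Dura mater-like cells exceeded the other suture classes by 3.58 (SE 0.12, adjusted p = 1.6e-18, 25.4% of genes called). The study itself ranks *Cxcl12* among the leading markers of its E18.5 dura mater population, found in these same cells. The marker list of the class draws on that population, so this call is no independent support. Dura mater-like cells formed a pair of clusters at E18.5, the first led by *Gpha2* and *Scara5* with 178 and 150 CPM, the other by *Bace2* and *Atp1b1* with 426 and 391. At E16.5 the dura mater-like class held 211 and 117 CPM from 19 and 8 UMIs, and exceeded the other suture classes by 3.32 (SE 0.68, adjusted p = 0.000492, 10.8% called). That call is lost with DESeq2 (3.14, adjusted p = 0.328) and when the other classes are summed first (2.48, adjusted p = 0.0659).

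Vascular and neural cells also held *Cxcl12* at E18.5, with 98.6 and 160 CPM in endothelial-like cells, 91.2 and 73.6 in pericyte-like cells and 282 in the 15 glia-like cells. Endothelial-like cells at E16.5 had 0 and 1 UMI. No *Cxcl12* UMI was found at E16.5 in macrophage-like cells, which allows a share of cells with a UMI of up to 4.84% and 9.09%, or in osteoclast-like cells, which allows up to 6.82% and 4.00%. These limits cover cells with a detected UMI, not cells that hold the transcript undetected.

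The CXCL12 receptors were held by different cells. *Cxcr4* at E18.5 was found in macrophage-like cells, at 14.3 and 32.3 CPM, and in endothelial-like cells, at 17.3 and 28.5. At the finer resolution the osteoclast-like part of that mixed class held 22.4 and 42.9 CPM, from 55 and 28 UMIs, and the macrophage-like part 8.78 and 19.7, from 29 and 5 UMIs. The named suture classes held at most 1.73, with no UMI in 115 and 357 osteoblast-like cells. Of thinned macrophage-like cells 4.69% (2.52 to 7.89) and 11.0% (4.85 to 20.5) had a *Cxcr4* UMI. Myeloid-like cells exceeded the suture classes by 5.78 (SE 0.39, adjusted p = 1.1e-12, 57.6% called). At E16.5 *Cxcr4* had at most 2 UMIs in any class and library, and its source could not be told at this depth.

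*Ackr3* at E18.5 was instead spread over the suture classes, highest in osteoblast-like cells at 71.1 and 76.7 CPM and in ectocranial mesenchyme-like cells at 49.6 and 59.6. Suture mesenchyme-like cells held 44.6 and 33.3, dura mater-like cells 30.1 and 20.8 and macrophage-like cells 7.47 and 4.90. *Ackr3* was lower in myeloid-like than in suture cells (−2.65, SE 0.25, adjusted p = 5.79e-10) and in dura mater-like than in the other suture cells (−0.64, SE 0.19, adjusted p = 0.0131). The latter was not called with 30 components (−0.26, adjusted p = 0.301), a resolution of 1.2 (−0.41, adjusted p = 0.123), 1000 genes per cell (−0.42, adjusted p = 0.11) or DESeq2 (−0.65, adjusted p = 0.0709), nor without the library block (−0.67, adjusted p = 0.0886). At E16.5 *Ackr3* was 106 CPM in hypodermis-like cells of library 1 and 92.6 and 69.2 in ectocranial mesenchyme-like cells, with no UMI in macrophage-like cells.

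*Cxcl14* marked the ectocranial mesenchyme-like cells at both ages, with 783 and 669 CPM at E16.5. At E18.5 they held 842 and 899. Thinned shares of cells with a UMI at E18.5 were 78.3% (74.2 to 82.1) and 76.3% (68.1 to 83.3), against 6.86% and 11.0% in macrophage-like cells. Other suture cells held less, with 232 and 151 CPM in dura mater-like, 250 and 126 in proliferating-like, 140 and 100 in suture mesenchyme-like and 28.6 and 24.5 in osteoblast-like cells. Myeloid-like cells were lower than suture cells (−2.19, SE 0.26, adjusted p = 2.78e-08). The sign for dura mater-like against other suture cells depended on how those were joined. With each class weighted alike it was 0.62 (SE 0.19, adjusted p = 0.0166), and with all UMIs of the others summed first it was −0.65 (adjusted p = 0.00756). It was not called at a resolution of 1.2 (0.32, adjusted p = 0.21), with DESeq2 (0.68, adjusted p = 0.12) or without the library block (0.61, adjusted p = 0.207). The E18.5 ectocranial mesenchyme-like class, of 434 and 131 cells, depended on the settings. At a resolution of 1.2 it held 302 and 115 cells, beside a hypodermis-like class of 110 and 9. With marked doublets left out it held 433 and 32 cells, and at 1000 genes per cell 312 and 8.

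Macrophage-like and osteoclast-like cells held the CC chemokine genes at E16.5, in different proportions. *Ccl9* was 285 and 414 CPM in osteoclast-like and 84.9 and 84.3 in macrophage-like cells, while *Ccr1* was 37.1 and 27.6 in the former and 184 and 135 in the latter. *Ccl2* (424 and 337), *Ccl7* (226 and 236) and *Cxcl2* (453 and 961) were high in macrophage-like cells, and osteoclast-like cells had no *Ccl7* UMI and at most 2 *Ccl2* UMIs per library. Against suture classes, myeloid-like cells were higher in *Cxcl2* (6.90, SE 0.72, adjusted p = 3.54e-10), *Ccl9* (6.70, SE 0.64, adjusted p = 3.16e-11), *Ccr1* (6.02, SE 0.88, adjusted p = 4.13e-07) and *Ccl2* (3.98, SE 1.16, adjusted p = 0.00341), where 58.1% of all genes were called and 33.7% were higher. A class without a UMI kept *Cxcl12*, *Cxcl14* and *Ccl7* from being fitted in that comparison, and of the 4 DESeq2 did not call *Cxcl2* (5.89, adjusted p = 0.15), *Ccl2* (3.00, adjusted p = 0.151) and *Ccr1* (4.89, adjusted p = 0.241). *Ccl2* was not called at a resolution of 1.2 either (2.73, adjusted p = 0.0677).

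**Figure D4:**
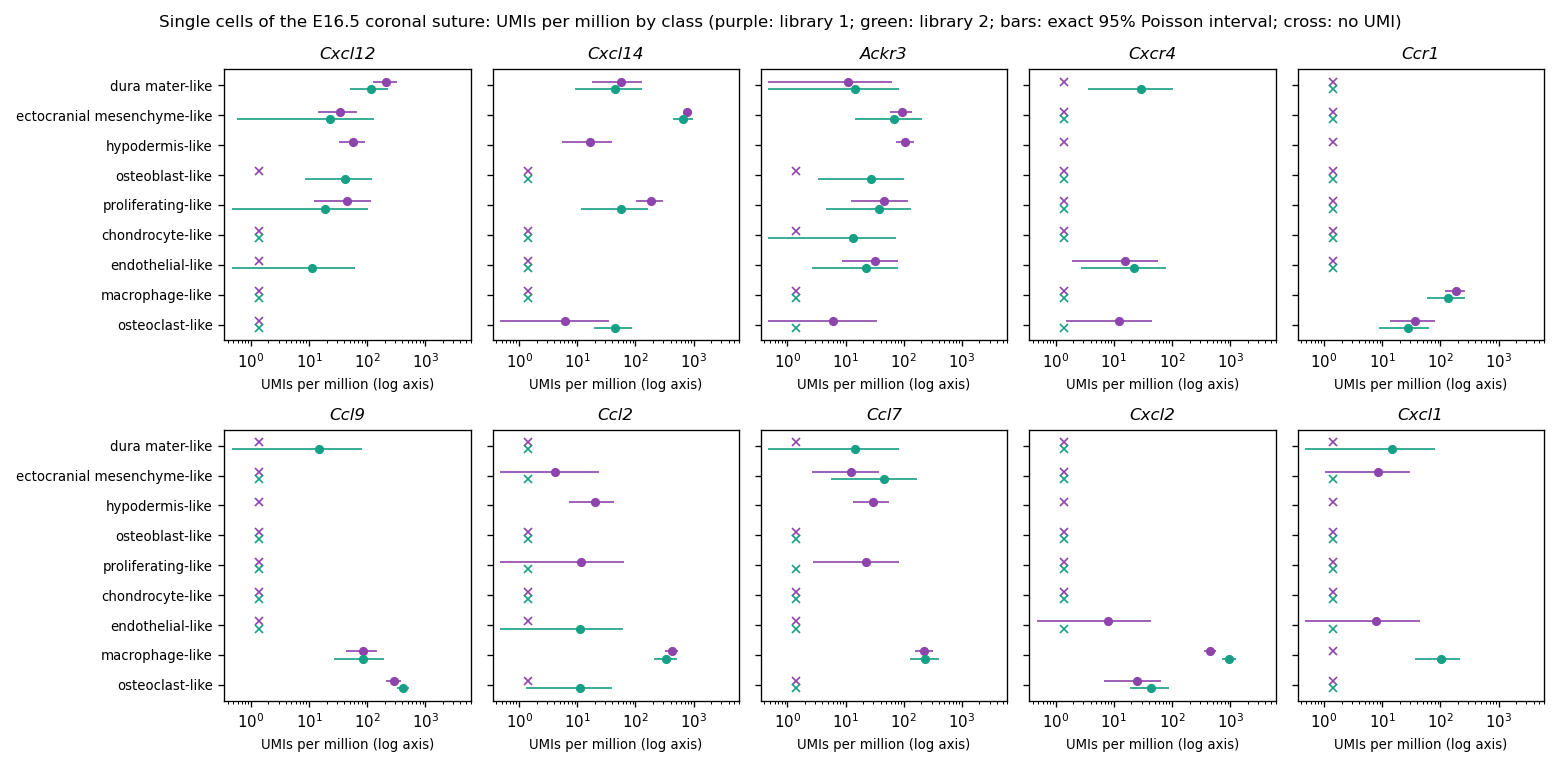
CPM of UMIs (log axis) of each gene by cell class in the 2 E16.5 libraries (purple and green points) with exact 95% Poisson bars, and a cross where a class held no UMI. *Cxcl12* stands out in dura mater-like cells, *Cxcl14* in ectocranial mesenchyme-like cells, *Ccl9* in osteoclast-like cells and *Ccl2*, *Ccl7*, *Cxcl2* and *Ccr1* in macrophage-like cells.

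At E18.5 all 10 genes differed between myeloid-like and suture cells, and in 7 of them myeloid-like cells were higher, where 57.6% of all genes were called and 28% were higher. *Ccr1* was 88.6 and 101 CPM in macrophage-like cells and at most 4.69 in any other class (6.92, SE 0.22, adjusted p = 1.39e-20). *Ccl9* was 464 and 409, against 2.59 to 16.1 in the other classes (5.89, SE 0.14, adjusted p = 1.67e-23). By the finer split *Ccl9* was 772 and 395 in the osteoclast-like and 216 and 378 in the macrophage-like part, while *Ccr1* was 25.3 and 58.2 in the former and 124 and 114 in the latter. The third part, of 18 and 11 cells, held 712 and 552 CPM of *Ccl9* and the most *Ccr1* of the 3 parts, at 226 and 316. *Cxcl2* (2917 and 1264), *Ccl2* (1648 and 340) and *Ccl7* (1232 and 183) were also high in macrophage-like cells, although pericyte-like cells exceeded them in *Ccl2* in library 2, with differences of 6.11, 4.78 and 3.58. In each of these 3 genes library 1 was the higher, with exact intervals that do not meet those of library 2, and the share of macrophage-like cells in the class was greater in library 1 as well. In the macrophage-like part alone library 1 was still the higher, at 4995 and 2513 CPM of *Cxcl2*, 2918 and 1111 of *Ccl2* and 2207 and 658 of *Ccl7*, so that *Ccl2* there exceeded the pericyte-like level in both libraries. The osteoclast-like part held 341 and 377, 96.2 and 84.3, and 48.9 and 27.6 CPM of these genes, with intervals that overlap between the libraries. The third part ran the other way for *Cxcl2*, at 893 and 3558 CPM, and held 226 and 87.6 CPM of *Ccl2* and 55.6 and 17.5 of *Ccl7*. Dura mater-like cells held somewhat more *Ccl7* than other suture cells (0.79, SE 0.26, adjusted p = 0.0261), a difference not called under 6 of 8 alternatives.

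*Cxcl1* and *Ccl2* had a further source in pericyte-like cells, the contractile cells around small vessels. Their 29 and 27 cells held 996 and 684 CPM of *Cxcl1* and 761 and 464 of *Ccl2*, with thinned shares for *Cxcl1* of 72.4% (52.8 to 87.3) and 51.9% (31.9 to 71.3). The thinned shares were 4.35% (1.43 to 9.85) and 7.28% (4.81 to 10.5) in osteoblast-like cells, and none of the classes can be taken to lack this gene. Endothelial-like cells held 254 and 120 CPM of *Cxcl1*, ectocranial mesenchyme-like cells 145 and 108, dura mater-like cells 97.5 and 131, macrophage-like cells 201 and 79.4 and osteoblast-like cells 20.2 and 38.5. By the finer split of the mixed macrophage-like class, the macrophage-like part held 320 and 134 CPM of *Cxcl1*. The osteoclast-like part held 63.2 and 70.5, and the third part 3.71 and 8.76. *Cxcl2*, in contrast to its neighbor, was 40.8 and 11.0 in pericyte-like cells. *Cxcl1* was higher in myeloid-like than in suture cells (0.89, SE 0.26, adjusted p = 0.00415), which was not called with DESeq2 (0.94, adjusted p = 0.228) or with classes summed first (0.50, adjusted p = 0.0537). At E16.5 *Cxcl1* had at most 6 UMIs in any class and library.

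**Figure D5:**
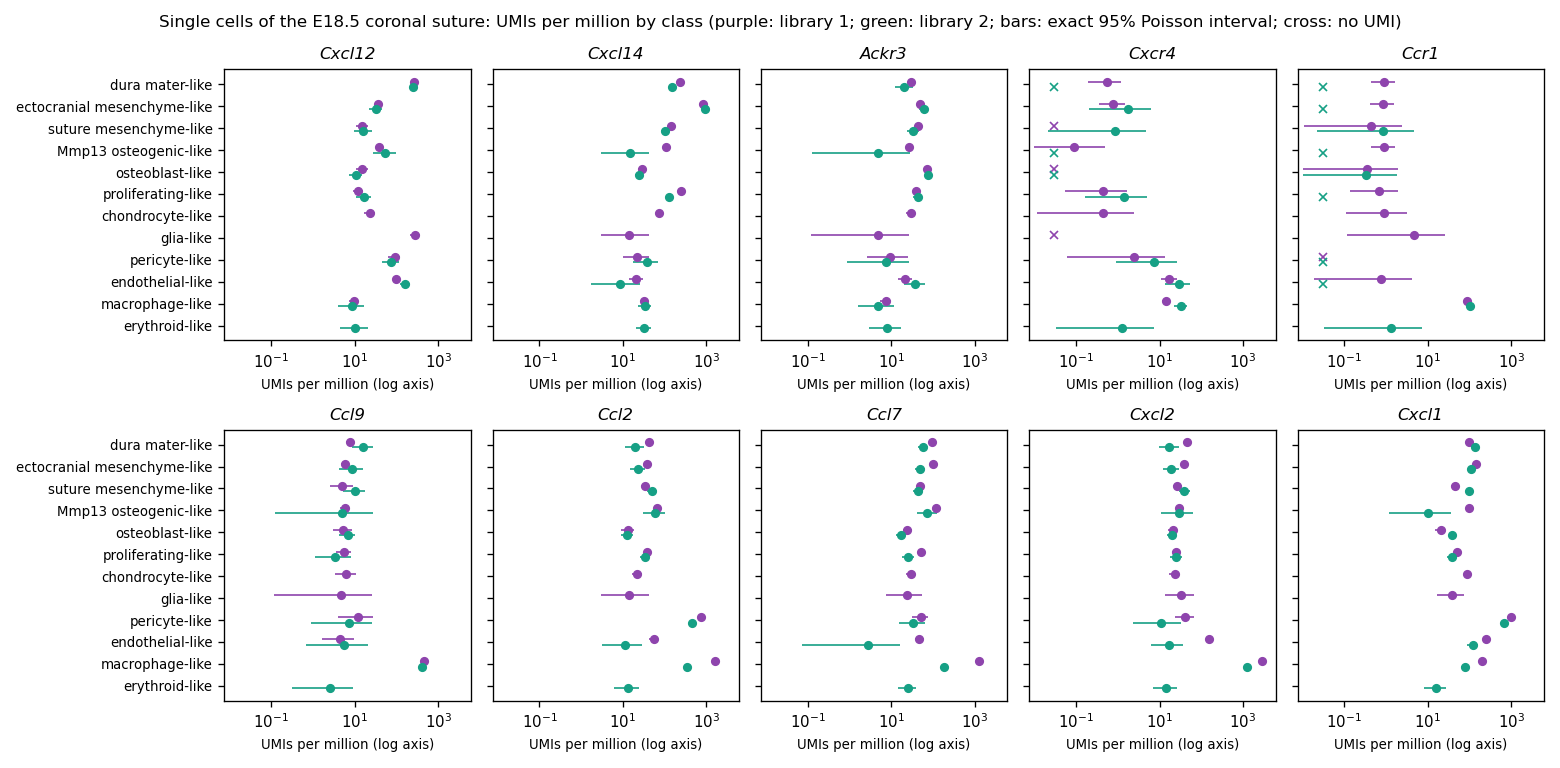
CPM of UMIs (log axis) of each gene by cell class in the 2 E18.5 libraries (purple and green points) with exact 95% Poisson bars, and a cross where a class held no UMI. Macrophage-like cells lead in *Ccr1*, *Ccl9*, *Ccl7* and *Cxcl2* in both libraries, pericyte-like cells in *Cxcl1*, and osteoblast-like cells in *Ackr3*. The macrophage-like class here is the mixed one of 277 and 73 cells.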

How the data were processed

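Laser-captured regions of mouse calvarial sutures and dissociated coronal suture cells were analysed from deposited counts. Per the labels and the study's methods, the authors amplified captured RNA (Ovation RNA-Seq V2, Nextera XT), trimmed reads with cutadapt, aligned them to mm10 with STAR 2.5.3a and counted them per GENCODE vM22 gene, without strand, with featureCounts 1.6.4. They deposited whole counts, and 62 columns of their own log2 ratios were not used. Single-cell counts of UMIs were made by the authors with Cell Ranger, and their ages are those of the labels, although the names of all 4 deposited matrices carry the earlier age.

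From these, genes with at least 1 CPM in more than 10% of the 100 first libraries (19768) were scaled by TMM and tested with edgeR 4.0.16 (quasi-likelihood, 1 mean per group of 5 embryos, 80 residual degrees of freedom, Benjamini-Hochberg adjustment over all genes, threshold 0.05). The 18 second coronal libraries, whose making the labels do not describe, entered only as an alternative. SM and OF of a suture share embryos, per the labels. Deviations from the group means correlated with a median r of 0.0606 over 60 same-embryo pairs, with 16 over 0.1, and −0.0174 between other pairs. An embryo block was fitted as an alternative.

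Cells with more than 800 genes were kept within 3 median absolute deviations, clustered with scanpy 1.11.5 (13 components, 100 neighbors, Leiden resolution 0.8), the suture cells again by themselves (13 components at E16.5 or 15 at E18.5, 50 neighbors), and named from marker lists, by a rule set after the clusters were seen. Scrublet marked 2, 2, 31 and 5 cells, or 0.43%, 0.59%, 1.29% and 0.32%, and they were kept in the main results. UMI sums per library and class of at least 10 cells were tested with edgeR, with the library as a block. The scripts were tested on simulated data with known changes. Alternatives were other scaling, filters and tests (RLE, total counts, filterByExpr, limma 3.58.1 voom, DESeq2 1.42.0), the block, each suture by itself, the second libraries, each replicate left out and other cluster settings.

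Named genes are the 10 members, other chemokine genes called in the mean of SM over OF or of either change with age, with a log2 change of at least 1 in size, and for each member of at least 1 CPM the 3 genes most like it. The members, marker lists and family list were chosen with earlier results of these data known. With 5 embryos per group and few counts for *Ccl2*, *Ccl7*, *Ccl9* and *Ccr1*, precision is low for these genes.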

Additional observations from a re-analysis of the deposited data

Results flagged for a closer look

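In 11 of 109 groups of 5 libraries with a mean of at least 1 CPM, the highest library stood far above the other 4 by Dixon's test. Some groups reached that mean only through the flagged library, as for *Ccl7* and *Cxcr4* in the coronal suture. The share of flags therefore cannot be set against a rate by chance. The coronal suture at E16.5 held 4 of them, with 5.86 CPM of *Ccl7* in SM replicate 2 (the others at most 0.332), 23.9 CPM of *Ccl9* (at most 3.43) and 5.71 CPM of *Cxcr4* (at most 0.117) in FR replicate 3, and 12.4 CPM of *Ccl9* in PA replicate 4 (at most 3.78). In the coronal SM at E18.5, replicate 1 held 3.98 CPM of *Ccl2* (at most 1.16). The frontal FR gave 7.63 CPM of *Cxcr4* and 2.24 CPM of *Ccl9* in replicate 2 at E16.5, and 3.17 CPM of *Ccl9* in replicate 2 and 34.8 CPM of *Ackr3* in replicate 4 at E18.5. The others were 29.1 CPM of *Ackr3* in sagittal SM replicate 3 and 2.70 CPM of *Ccr1* in lambdoid SM replicate 5, both at E16.5. *Cxcr4* and *Ccl9* were thus high in the same coronal FR library.

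By tests of the difference itself, the change of *Cxcl12* with age differed between SM and OF by 0.93, and SM over OF differed between the coronal suture and the mean of the others by 0.83 for *Cxcl12*, 1.07 for *Cxcl14* and −0.96 for *Ackr3*. The *Cxcl14* value was 0.10 with the second coronal libraries in place of the first. The coronal values are averaged over both ages, and suture and library set cannot be told apart in them.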

How the results depend on the processing

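Over the captured regions, 737 of 846 recomputed single values kept their direction and side of the threshold, 83 lost and 24 gained a call, and 2 changed sign, and over the single cells 190 of 215 kept both, 22 lost and 2 gained a call and 1 changed sign. The number of the 8 genes called in the mean of SM over OF was 4. It was 7 with total counts, 7 with DESeq2, 5 with the replicate block and 2 to 6 with a replicate left out. Of all 19768 genes, 10946 were called there in the main fit, 11068 with total counts and 11628 with DESeq2. For the mean change with age in SM the number of the 8 genes was 1. It was 0 with the second libraries and 1 to 1 with a replicate left out. In OF it was 1, against 2 and 1 to 2 in these settings. The difference between those changes was called for 1 gene, and for 0 with total counts, voom, the replicate block, the second libraries and any replicate left out. The coronal suture differed from the others in 3 genes, in 5 with voom and in 1 to 4 with a replicate left out. The 12 comparisons of SM with an OF held 17 calls, 15 with the replicate block and 13 to 19 with a replicate left out. The 10 comparisons of age held 8 calls, 14 with voom and 4 to 8 with a replicate left out. Among all genes the called share ran from 3.46% to 35.6% over the 12 comparisons and from 0.288% to 27.1% over the 10. In single cells, 4 genes were called in myeloid-like cells at E16.5, 2 with DESeq2 and 7 with classes summed first. In dura mater-like cells it was 1 at E16.5, and 0 with DESeq2 or classes summed, and 4 at E18.5, with 2 at 30 components and 1 at a resolution of 1.2, with DESeq2 or without the library block. Reversed values were −0.69 (*Ccl7*, age, coronal FR) and −0.62 (*Ccl2*, age, coronal PA) with the second libraries and −0.65 (*Cxcl14*, dura mater-like, E18.5) with classes summed, an alternative chosen after seeing the data. The fit of *Cxcl1* without the filter and without replicate 4 was also chosen after seeing the data. The causes were not tested. Apart from the calls given beside the results above, the replicate block changed no call. Changes with age have no blocked fit because each embryo has 1 age, and means over sutures were not run with each suture by itself. Counts were fewest for *Cxcl1* and *Cxcl2*, with 149 and 12 over the 100 captured libraries.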
